A study of Mus musculus with 5 samples.

Results

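Matricellular proteins are secreted into the extracellular matrix, where they act on cells more than they bear load. The genes described here are 10 of the 41028 gene names in the deposited matrices, chosen by name as matricellular genes of tumour stroma: Postn, Tnc, Thbs1, Thbs2, Thbs4, Sparc, Fn1, Spon1, Cilp and Ctgf. The choice was made with earlier results of these data known. All 10 had counts in each of the 5 main matrices and all 10 passed the filters on low counts in every test below. They were measured by single-cell RNA sequencing of mammary tumours from PyMT mice, which carry the polyoma middle T oncogene. The tumours were digested and enriched for viable cells, and single cells were captured in droplets (10x Chromium) or in microwells (BD Rhapsody). Fresh 10x (3' chemistry, version 2) has 2 samples, and BD 1 is 1 fresh sample on BD Rhapsody (whole transcriptome). Stored 10x is 1 sample titled 24 h; per the protocol, such digests stood overnight at 4 °C until viability had dropped, before viable cells were enriched. A further BD Rhapsody sample, BD 2, is titled fresh while its files are named for 24 h, so it is described and enters no main comparison. The sources used here do not give the promoter of the transgene, the strain, sex and age of the mice, or whether any libraries share an animal. All groups share the PyMT tumour, the digestion and the enrichment.

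Periostin, tenascin-C and the thrombospondins are low in most resting adult tissue and are laid down during wound repair and around carcinomas, where fibroblasts are their usual source. They bind integrins, CD36, CD47 and other matrix proteins, and thrombospondin-1 can release TGF-beta from its latent form. Fibronectin (Fn1) is a structural matrix glycoprotein as well as an integrin ligand. Connective tissue growth factor (Ctgf, named Ccn2 in RefSeq) is a CCN-family protein and a well-known target of the YAP and TEAD regulators. SPARC binds collagen, F-spondin (Spon1) is a thrombospondin-repeat protein, and cartilage intermediate layer protein (Cilp) is known as an antagonist of TGF-beta and IGF-1.

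The members lie on different chromosomes in the RefSeq annotation of GRCm38.p6, the build to which mm10 corresponds. Tnc is at chr4:63959785-64047015, Postn at chr3:54359267-54391041, Thbs4 at chr13:92751586-92794818 and Ctgf at chr10:24595442-24598683. Promoter sequences were available from RefSeq (GRCm38.p6) for 6 of the 10 genes. Thbs1, Fn1, Spon1 and Ctgf had none, so no motif was searched for them. The 250 bases before a start site are shown for 3 genes that were all higher in the same fibroblast cluster, since their promoters differ in make-up. Capitals mark TATAAA, the TATA box core, and GGGCGG, the GC box core, on either strand.

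Postn, second listed start, + strand, chr3:54360857-54361106: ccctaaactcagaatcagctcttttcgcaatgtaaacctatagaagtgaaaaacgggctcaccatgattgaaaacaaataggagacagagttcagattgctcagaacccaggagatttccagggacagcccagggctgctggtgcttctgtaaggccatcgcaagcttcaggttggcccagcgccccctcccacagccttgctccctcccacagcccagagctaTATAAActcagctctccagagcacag

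Tnc, − strand, chr4:64047016-64047265: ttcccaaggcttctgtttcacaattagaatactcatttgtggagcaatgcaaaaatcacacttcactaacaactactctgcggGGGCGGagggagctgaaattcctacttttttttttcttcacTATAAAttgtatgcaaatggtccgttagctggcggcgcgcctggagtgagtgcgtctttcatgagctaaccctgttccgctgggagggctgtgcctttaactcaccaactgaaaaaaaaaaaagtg

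Thbs4, − strand, chr13:92794819-92795068: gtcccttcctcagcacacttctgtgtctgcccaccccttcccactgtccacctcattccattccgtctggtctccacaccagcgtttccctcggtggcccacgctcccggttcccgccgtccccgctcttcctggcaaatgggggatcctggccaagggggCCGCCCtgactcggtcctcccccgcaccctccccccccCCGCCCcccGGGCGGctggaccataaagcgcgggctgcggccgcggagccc

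The Postn window holds TATAAA beginning 26 bases before the start. This entry was chosen for that motif: the entry at the annotated gene start, chr3:54359017-54359266, has 40.4% G and C and no TATAAA. In the Tnc window it begins 126 bases before the start, and GGGCGG begins 167 bases before it. The Thbs4 window has no TATAAA and holds GGGCGG 3 times, within a sequence of 70.8% G and C, against a median of 52.4% over all 32851 RefSeq entries. TATAAA occurs in 12.4% of those entries and in an entry of 3 of the 6 member genes (Postn, Tnc, Thbs2), and GGGCGG occurs in 32.7% and in 2 of the 6 (Tnc, Thbs4). The TEAD motif GGAATG, present in 12.6% of entries, was found for Thbs4, and the AP-1 motif TGANTCA, present in 6.75%, for 0 of the 6. The SMAD motif CAGACA, present in 17.1%, was found for 4 of the 6 (Sparc, Thbs2, Thbs4, Tnc), for Tnc only in the entry not shown. Postn and Tnc have 2 entries each and a gene counts if either holds the motif, so these counts and the percentages of entries are unlike units. Both strands were searched. These are matches of letters and were not tested as sites.

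The libraries held 1864 to 4078 clustered cells and 29166129 to 59957945 UMIs (unique molecular identifiers, each a counted molecule), with medians of 8926 to 12474 UMIs per cell. The median mitochondrial share of a cell's UMIs ranged from 6.14% to 7.17% on 10x, and was 15.2% for BD 1 and 19.8% for BD 2. Pairs of 10x libraries shared 1 to 5 cell barcodes and the BD libraries shared 24, none with equal totals. Cells were clustered without the 10 members and named from marker genes. Series of values follow the order fresh 10x 1, fresh 10x 2, stored 10x, BD 1, BD 2 throughout. Clusters left unnamed held 3.15%, 4.13%, 10.8%, 9.30% and 12.9% of the clustered cells. Levels are CPM, the UMIs of a gene per 1000000 UMIs summed over the cells of a class. A sum cannot tell fewer cells with a transcript from less of it per cell. Exact 95% Poisson intervals are given for some levels and cover counting error only.

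All 10 genes were higher in fibroblast-like cells than in epithelial-like tumour cells in all 5 libraries. Basal epithelial-like cells are a class of their own and are not part of this comparison. The share of all genes with this direction was not counted, so the count is not read as particular to the members. The fibroblast-like class held 197, 120, 315, 334 and 229 cells and the epithelial-like class 1281, 1304, 2668, 2551 and 2855. Both classes come from the same libraries, so this is given without a test. For Cilp the ratio was largest, a mean log2 ratio of 9.43 ± 0.600 (SD, n = 5 libraries). It was 9.05 ± 0.419 for Sparc, 8.98 ± 0.814 for Thbs4, 8.64 ± 0.395 for Fn1, 8.52 ± 0.329 for Spon1 and 8.30 ± 0.695 for Postn. Free RNA can set part of an epithelial level, as described below, so the order of these high ratios is not read. The smallest ratios were those of Thbs1, 1.81 ± 0.961, and Ctgf, 4.76 ± 0.628.

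**Figure D1:**
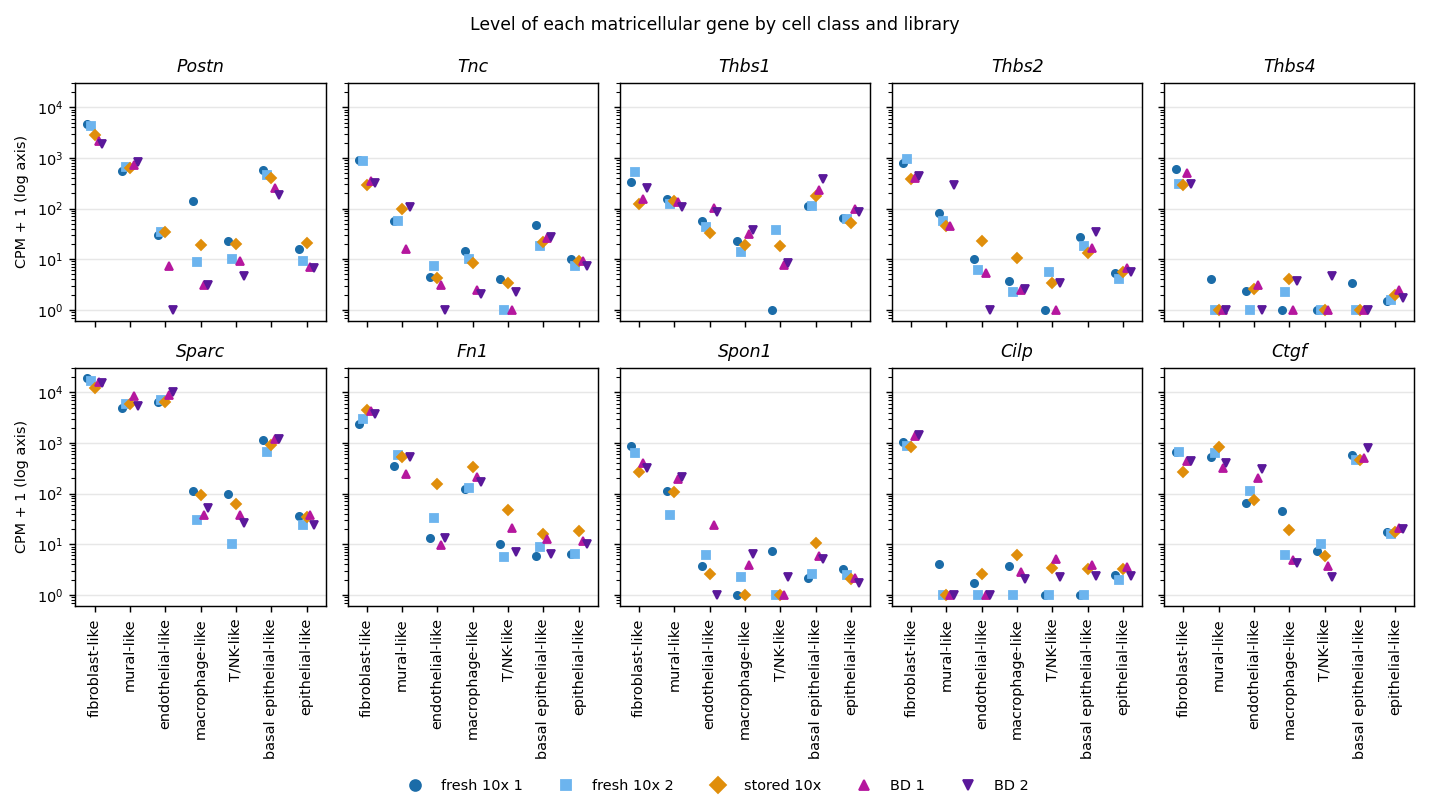
Level of each of the 10 genes (CPM + 1, log axis) in 7 cell classes, with 1 point per library. Cilp and Thbs4 reach 296 CPM or more in fibroblast-like cells alone. Sparc is at 4893 CPM or more in mural-like and endothelial-like cells too. The Ctgf ranges of fibroblast-like, mural-like and basal epithelial-like cells overlap. In stored 10x, BD 1 and BD 2 Ctgf is higher in basal epithelial-like than in fibroblast-like cells.

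Cilp and Thbs4, a pentameric thrombospondin best known from tendon and muscle, were the most restricted to fibroblasts. In fibroblast-like cells Cilp was at 1028, 889, 828, 1401 and 1462 CPM and in no other named class listed in the plot by class did it pass 5.23 CPM in any library. Thbs4 was at 615, 304, 296, 498 and 310.1 CPM in fibroblast-like cells and at most 3.64 CPM in the other named classes of that plot. Fibroblast-like cells held 96.4% to 98.8% of the Cilp UMIs of a library and 95.8% to 98.5% of the Thbs4 UMIs. The 2 genes also shared cells: of the fibroblast-like cells with Thbs4, 96.9%, 93.0%, 95.7%, 97.6% and 91.2% had Cilp, against 84.8%, 76.7%, 60.3%, 60.8% and 60.3% of all fibroblast-like cells. Deeper cells are more likely to show both, and the part of depth in this was not tested.

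Postn, Tnc, Thbs2 and Spon1 were highest in fibroblast-like cells and had a lower second tier. Postn was at 4745, 4260.4, 2872, 2186 and 1902 CPM in fibroblast-like cells. In mural-like cells (pericytes and smooth muscle) it ranged from 558 to 821 CPM and in basal epithelial-like cells from 186 to 587 CPM, ranges that overlap each other and not the fibroblast range. Tnc was at 903, 869, 297, 355 and 321 CPM in fibroblast-like cells, 14.9 to 107 in mural-like and 17.5 to 47.3 in basal epithelial-like cells. Thbs2, an anti-angiogenic thrombospondin, was at 795, 970.2, 384, 406 and 439 CPM in fibroblast-like cells and at 44.6 to 285 in mural-like cells. Spon1 was at 854, 624, 261, 402 and 314 CPM in fibroblast-like cells and at 37.2 to 214 in mural-like cells. For each of these 4 genes the lowest fibroblast level lay above the highest level of the other classes in that plot. The mural-like class held 67, 61, 27, 12 and 7 cells, so its BD levels rest on few UMIs, such as 23 Postn UMIs in BD 2.

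Sparc had 3 strong sources. It was at 18843, 16850.5, 12092, 16338 and 15190.3 CPM in fibroblast-like cells, at 6385 to 10131 in endothelial-like cells and at 4893 to 8512 in mural-like cells. The last 2 ranges overlap, and both lie under the fibroblast range. Basal epithelial-like cells followed at 654 to 1224 CPM, while macrophage-like cells did not pass 113 CPM. Fibroblast-like cells held 79.6% and 76.3% of the Sparc UMIs in fresh 10x and 85.8%, 93.1% and 94.8% in the other libraries. Endothelial-like cells held 14.7% of them in fresh 10x 1 and 1.40% in BD 2, and numbered 179, 104, 87, 45 and 13.

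Fn1 was at 2339, 3042, 4383, 4237 and 3711 CPM in fibroblast-like cells and at 239 to 579 in mural-like cells. Macrophage-like cells followed at 121, 129, 328, 207 and 172 CPM, a range overlapping that of mural-like cells. T/NK-like cells, which should not make fibronectin, had 4.51 to 45.6 CPM. Thinned in expectation to 2000 UMIs a cell, 7.47%, 11.3%, 25.5%, 14.0% and 14.5% of macrophage-like cells had an Fn1 UMI, against 1.33%, 0%, 10.6%, 3.44% and 0.865% of T/NK-like cells. Without thinning the shares were 18.0% to 35.9% and 2.44% to 15.3%, at median depths of 4542 to 11775 UMIs and 2486 to 5620.5. Deep enough for thinning were 48, 85, 134, 209 and 208 macrophage-like, 65, 30, 72, 100 and 142 T/NK-like and 1253, 1275, 2506, 2551 and 2855 epithelial-like cells. With finer clustering (Leiden resolution 2.0) the macrophages split into a cluster led by Lyz2 and Gpnmb and a cluster led by C1qc and C1qa. Fn1 was at 926, 148, 553, 419.7 and 364 CPM in the Gpnmb cluster against 33.7, 116, 203, 90.4 and 85.0 in the C1qc cluster, higher beyond counting error in stored 10x, BD 1 and BD 2. The value of fresh 10x 1 comes from 33 UMIs of 1 cell among 4, and the intervals of fresh 10x 2 overlap (109 to 195 and 86.3 to 152).

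Ctgf and Thbs1 were the least fibroblast-specific members. Ctgf was at 653, 675, 265, 433 and 431 CPM in fibroblast-like cells, 313 to 829.6 in mural-like cells and 458 to 779.6 in basal epithelial-like cells, and these 3 ranges overlap. Within stored 10x, BD 1 and BD 2 the basal epithelial-like level was the higher (458 against 265, 513 against 433 and 779.6 against 431). Within both fresh 10x samples the fibroblast-like level was the higher. Mural-like cells had more Ctgf than fibroblast-like cells in stored 10x alone (829.6 against 265). Endothelial-like cells had 64.2 to 304 CPM and epithelial-like cells 15.2 to 19.8. Thbs1 was at 339.9, 528, 124, 150.2 and 254 CPM in fibroblast-like cells, 109.9 to 388 in basal epithelial-like cells, 107 to 151 in mural-like cells and 49.7 to 96.5 in epithelial-like cells. Its basal epithelial-like level was also above the fibroblast-like level in stored 10x (179), BD 1 (235) and BD 2 (388), and below it in both fresh 10x samples. Epithelial-like cells, the most numerous class, held 55.8% to 74.7% of the Thbs1 UMIs of a library and fibroblast-like cells 15.6% to 37.5%.

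Free RNA from lysed fibroblasts can put fibroblast transcripts into other cells, so the epithelial levels were read against 8 fibroblast genes (Dcn, Lum, Col1a1, Col1a2, Col3a1, Dpt, Mfap4, Serpinf1). In epithelial-like cells these genes were at a median of 0.177%, 0.117%, 0.323%, 0.210% and 0.129% of their fibroblast level. Thbs1, at 11.5% to 64.3% of its fibroblast level, Ctgf at 2.25% to 6.25%, Tnc at 0.742% to 2.74% and Thbs2 at 0.324% to 1.38% were above all 8 genes in all 5 libraries. Sparc (0.135% to 0.278%) and Cilp (0.0912% to 0.262%) were above all 8 in 0 libraries, Fn1 in 1, Thbs4 in 2, Postn in 3 and Spon1 in 4. Over the whole class, the epithelial levels of Sparc and Cilp thus lay within or below the range of the background genes. Sparc was uneven among the luminal clusters. It was at 43.9, 42.5, 69.6, 99.3 and 52.9 CPM in the cluster led by S100g and Spp1. In the cluster led by Wif1 and Smr2 its median was 55.3 CPM (26.8 to 196). In the cluster led by Prh1 and Pip it was at 28.2, 18.7, 22.1, 20.5 and 12.5 CPM. Doublets of an epithelial cell and a fibroblast were not removed, and their part in these levels was not tested.

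Thbs1 UMIs were found throughout the epithelial-like class. A Thbs1 UMI was present in 30.1%, 25.5%, 24.4%, 30.4% and 24.9% of epithelial-like cells, and in 8.43%, 7.08%, 6.71%, 10.2% and 9.04% when thinned in expectation to 2000 UMIs. In T/NK-like cells the thinned shares were 0% to 3.70%, from 0 to 8 UMIs a library. The median depths were 11048 to 14024 UMIs in epithelial-like cells and 2486 to 5620.5 in T/NK-like cells.

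**Figure D2:**
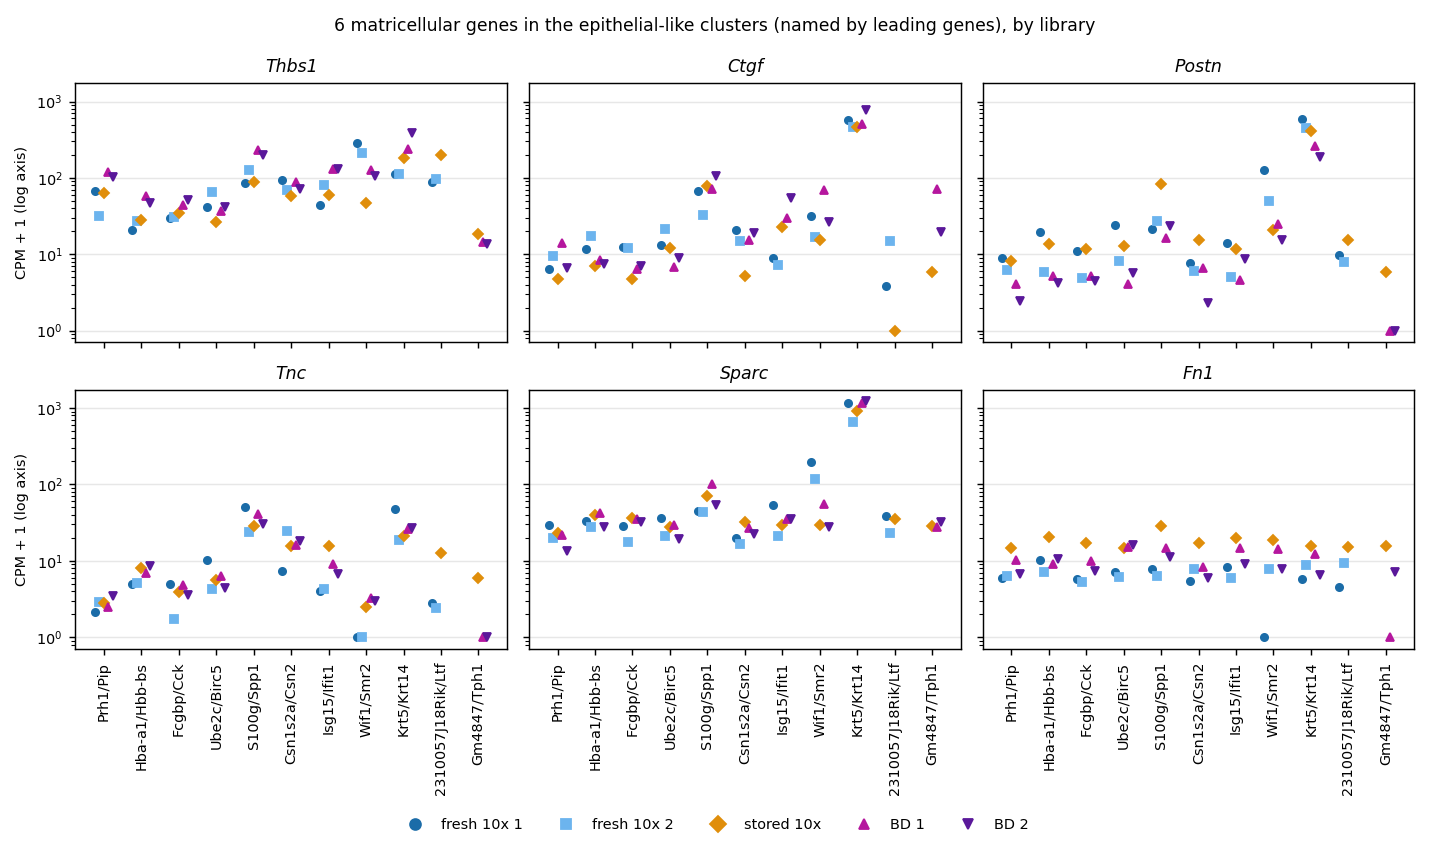
Level of 6 of the genes (CPM + 1, log axis) in 11 epithelial-like clusters named by their 2 leading genes, with 1 point per library that has at least 10 cells of the cluster. Sparc, Ctgf and Postn stand out in the basal Krt5/Krt14 cluster. Tnc is raised in the S100g/Spp1 cluster (median 29.2 CPM) and in the basal cluster (24.8). Fn1 is low and even across clusters with stored 10x on top in most of them.

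Among the epithelial clusters, the basal cluster led by Krt5 and Krt14, which are keratins of myoepithelial cells, stood apart. It had 587, 449, 406, 257 and 186 CPM of Postn, 567, 459, 458, 513 and 779.6 CPM of Ctgf, and 1168, 654, 904, 1177 and 1224 CPM of Sparc. Its Fn1 level, 4.73 to 14.6 CPM, lay within the range of the other epithelial clusters, so Fn1 did not stand out with the other 3. Thbs2 was at 12.4 to 33.2 CPM in the basal cluster, against at most 10.4 in any other epithelial cluster. Tnc there had a median of 24.8 CPM (17.5 to 47.3). Among the luminal clusters, the cluster led by S100g and Spp1 had the highest median of Tnc, 29.2 CPM (lowest 23.2), and of Ctgf, 70.4 CPM (31.6 to 104). For Tnc the cluster led by the milk protein genes Csn1s2a and Csn2 followed at a median of 15.1 CPM (6.41 to 23.4), and the 2 ranges overlap slightly. Thbs1 in the S100g cluster was at 84.4, 126, 87.1, 233 and 199.7 CPM, against 19.9 to 56.4 in the cluster led by Hba-a1 and Hbb-bs. It did not stand alone: the cluster led by Wif1 and Smr2 had the same median of 126 CPM (45.6 to 284), and the cluster led by 2310057J18Rik and Ltf had 88.6, 96.6 and 196 CPM in the 10x libraries, with 6 cells or fewer in each BD library.

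Fibroblast-like cells fell into 2 clusters, and the members divided between them. One was led by Clec3b, Efemp1 and Dpt, and Clec3b marks resting adventitial fibroblasts. The other was led, members aside, by Lrrc15, Col8a1 and Col12a1, and Lrrc15 marks matrix-rich fibroblasts of carcinomas. The 10 members were not used for clustering, and Spon1, Thbs4, Postn, Tnc and Cilp were among the 10 leading genes of the Lrrc15 cluster by fold. The members were chosen with earlier results of these data known, so this is a description and no independent support. Cells and clusters share their libraries, so the differences below are described over the 5 libraries with no test.

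In all 5 libraries 9 members were higher in the Lrrc15 cluster and Fn1 was higher in the Clec3b cluster. The largest gap was that of Thbs4, with 27.7, 47.7, 86.5, 118 and 89.9 CPM in the Clec3b cluster and 753, 448, 826, 1659.5 and 1108 in the Lrrc15 cluster, a mean log2 ratio of 3.74 ± 0.625 (SD, n = 5 libraries). Spon1 was at 64.0 to 199.8 CPM in the Clec3b cluster and 759.6 to 1358 in the Lrrc15 cluster, a mean log2 ratio of 3.30 ± 0.593. Tnc was at 312, 139, 56.8, 82.7 and 127 CPM against 1042, 1279, 906, 1187 and 1024, a mean log2 ratio of 3.16 ± 0.896. For these 3 genes the levels of the 2 clusters did not overlap over the libraries. The same held for every other member except Thbs1, at 86.7 to 275 CPM in the Clec3b cluster and 156 to 776 in the Lrrc15 cluster. The clusters were themselves drawn from expression. The share of all genes with such a gap, or with 1 direction in all libraries, was not counted.

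Ctgf followed with a mean log2 ratio of 1.90 ± 0.313, Cilp with 1.77 ± 0.716 and Postn with 1.71 ± 0.693. Postn was at 2783, 2582, 1444, 1147 and 1042 CPM in the Clec3b cluster and at 5207, 5202, 6485, 5358 and 5017 in the Lrrc15 cluster. Its Lrrc15 level thus varied little between libraries while its Clec3b level was highest in the fresh 10x pair. Thbs2 (1.00 ± 0.436) and Sparc (0.66 ± 0.228) had smaller ratios that were positive in every library. Thbs1 had the least even ratio, 1.39 ± 1.26, ranging from 1.29-fold in fresh 10x 1 to 8.95-fold in fresh 10x 2. Single cells weighed on it: 1 cell held 255 of the 957 Thbs1 UMIs of the Lrrc15 cluster in fresh 10x 2 and 1 cell held 192 of 540 in BD 2.

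Fn1 ran the other way, at 3831, 4714, 4999, 4686 and 4192 CPM in the Clec3b cluster and 1987, 2104, 2823, 2866 and 1970.1 CPM in the Lrrc15 cluster. The mean log2 ratio was -0.95 ± 0.186, the smallest SD among the 10 genes, and the ranges did not overlap.

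**Figure D3:**
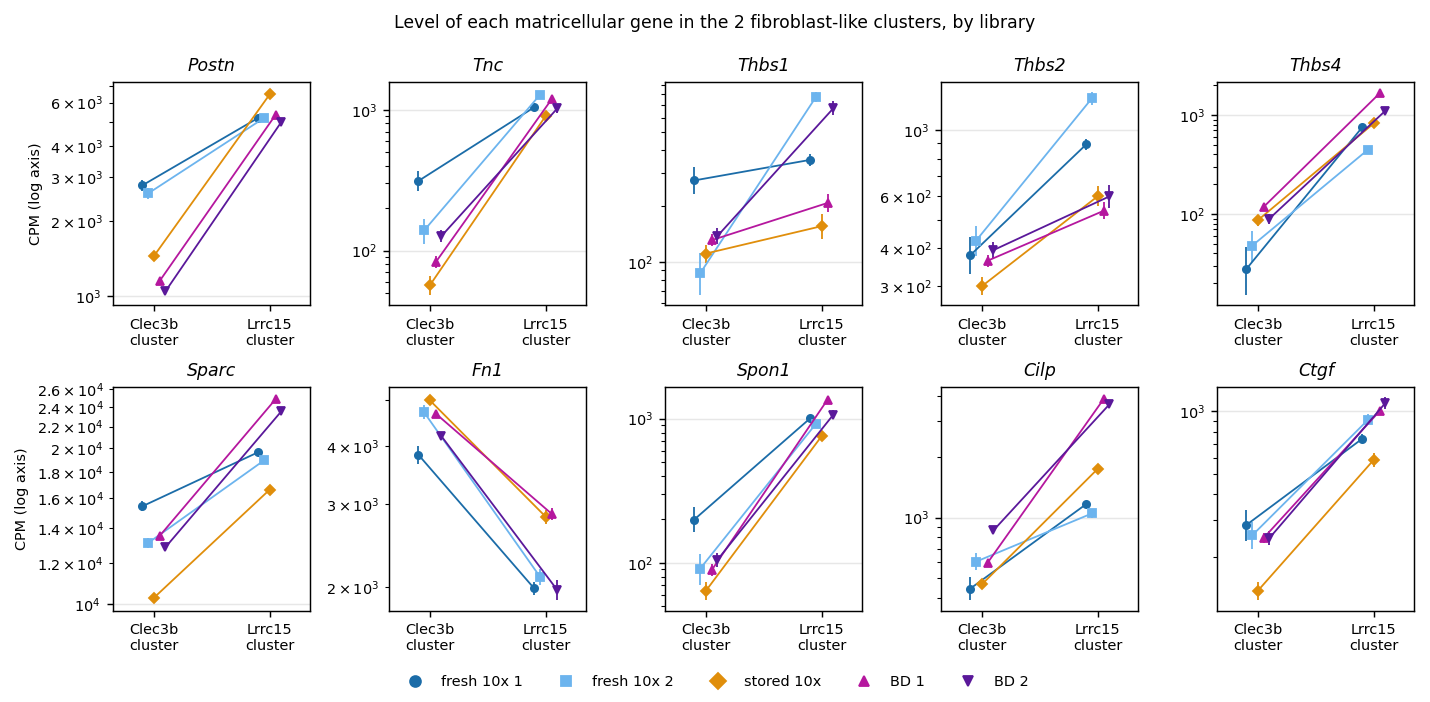
Level of each gene (CPM, log axis, a scale of its own per panel) in the Clec3b and Lrrc15 clusters, with 1 line per library and exact 95% Poisson intervals as bars. All lines rise toward the Lrrc15 cluster for 9 genes and all fall for Fn1.

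At Leiden resolution 2.0 the fibroblasts formed 3 clusters, and the Clec3b cells divided into a group led by Sema3c and Clec3b and a group led by Apod and Mmp3. Fn1 was highest in the Sema3c group, at 5219 to 6850.4 CPM, against 2778 to 4363 in the Apod group and 2017 to 3253 in the third cluster, led by Col8a1 and Lrrc15. The last 2 ranges overlap. Spon1 was at 4.96 to 23.9 CPM in the Sema3c group, 76.2 to 155 in the Apod group and 627 to 1188 in the Col8a1 cluster, 3 ranges without overlap. Thbs4 had medians of 4.03, 129 and 726 CPM in the same order. Postn did not separate the first 2 groups, with 987 to 3058 and 915 to 2120.0 CPM.

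Cells within a cluster varied too. In the Lrrc15 cluster every cell had Sparc, and the 10% of the cells with most Sparc held 21.7% to 27.9% of its UMIs. For Cilp the top 10% held 36.0% to 45.7%, and for Thbs4, found in 52.6% to 64.8% of the cells, 49.5% to 57.7%. In the Clec3b cluster Thbs4 was found in 2, 3, 25, 23 and 22 cells, and in BD 1 a single cell held 306 of its 599 UMIs. Without that cell the BD 1 level was 57.9 CPM in place of 118.

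The balance of the 2 clusters differed between libraries, and its part in the differences over all fibroblast-like cells below was not tested. The Lrrc15 cluster made up 81.2% of the fibroblast-like cells of fresh 10x 1 (exact 95% binomial interval 75.1 to 86.4) and 63.3% of those of fresh 10x 2 (54.1 to 71.9). It made up 25.1% in stored 10x (20.4 to 30.2), 27.8% in BD 1 (23.1 to 33.0) and 23.6% in BD 2 (18.2 to 29.6). Most fibroblast-like cells thus came from the Lrrc15 cluster in fresh 10x and from the Clec3b cluster elsewhere. With single samples, platform or storage and a difference between tumours cannot be told apart, for this balance or for any library difference below.

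**Figure D4:**
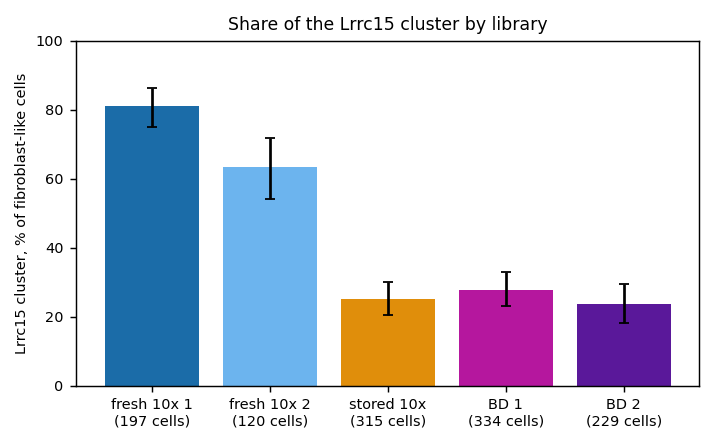
Share of fibroblast-like cells in the Lrrc15 cluster by library, with exact 95% binomial intervals that cover counting error only. The fresh 10x samples are at 81.2% and 63.3% and the other libraries between 23.6% and 27.8%.

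The platforms were compared on fresh tissue as BD 1 against fresh 10x. In fibroblast-like cells 8 of the 10 members differed (edgeR quasi-likelihood test, adjusted p under 0.05), against 43.7% of the 12222 genes tested. Lower in BD 1 were 6 members (22.2% of all genes were lower): Thbs1, Tnc, Thbs2, Postn, Spon1 and Ctgf. Fn1 and Cilp were higher (21.5% of all genes were higher). The median log2 difference was -0.86 over the members and 0.02 over all genes tested. The test rests on 1 BD library and on the spread of the fresh 10x pair, shared across genes, so p-values measure only the spread between these samples, which may be technical. The mitochondrial share given above was also higher in BD 1 than in fresh 10x, and its part in these differences was not tested.

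Tnc fell from 903 and 869 CPM in fresh 10x to 355 in BD 1, a log2 difference of -1.43 (SE 0.186, edgeR adjusted p 6.37e-07). Postn fell from 4745 and 4260.4 CPM to 2186, by 1.16 on the log2 scale (SE 0.160, edgeR adjusted p 1.69e-06). Thbs1 fell from 339.9 and 528 CPM to 150.2, by 1.64 (SE 0.223, edgeR adjusted p 1.23e-06). In each case BD 1 lay below both fresh samples. Thbs2 had a log2 difference of -1.23 (edgeR adjusted p 7.73e-06) and Ctgf of -0.73 (edgeR adjusted p 0.00176), and Spon1 fell from 854 and 624 CPM to 402 (edgeR adjusted p 0.000219). Fn1 rose from 2339 and 3042 CPM to 4237, a log2 difference of 0.54 (edgeR adjusted p 0.00713), and Cilp from 1028 and 889 to 1401, 0.43 (edgeR adjusted p 0.0388). Sparc (-0.24, edgeR adjusted p 0.133) and Thbs4 (-0.01, edgeR adjusted p 0.989) did not pass. By the DESeq2 Wald test 5 members passed, against 1283 of the 18705 genes with a p-value, and Fn1, Cilp and Ctgf did not. With both BD libraries set against all 3 10x libraries, Tnc (-1.12), Thbs1 (-0.80), Thbs2 (-0.86), Fn1 (0.19), Spon1 (-0.79) and Ctgf (-0.39) no longer passed and Postn and Cilp did. Of all genes, 3711 of 11593 passed in that edgeR fit.

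Within the clusters, a comparison added after seeing the balance above, 4 of the 6 members lower over the class (Postn, Tnc, Spon1 and Ctgf) were not called lower in the Lrrc15 cluster. There 7 members passed, against 35.5% of 10150 genes, and 5 of them were higher in BD 1 (17.2% of all genes): Cilp, Thbs4, Spon1, Fn1 and Sparc. Postn (5207 and 5202 CPM in fresh 10x, 5358 in BD 1) and Tnc (1042 and 1279, 1187 in BD 1) had log2 differences of -0.01 (SE 0.105) and -0.02 (SE 0.143) there. Cilp rose from 1165 and 1048 CPM to 3853, a log2 difference of 1.74 (SE 0.119, edgeR adjusted p 2.43e-11), and Thbs4 from 753 and 448 to 1659.5, 1.40 (SE 0.178, edgeR adjusted p 8.75e-07). Spon1, lower in BD 1 over the class, was higher within the cluster, at 0.44 (edgeR adjusted p 0.0120), and Sparc was higher by 0.31 (edgeR adjusted p 0.00535). Lower (18.3% of all genes) were Thbs1 (-1.49, edgeR adjusted p 9.74e-05), and Thbs2 (-1.07, edgeR adjusted p 2.80e-05). Leaving out of each library the cell with most Thbs1 gave 306 and 583 CPM in fresh 10x and 192 in BD 1.

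In the Clec3b cluster 3 members passed between BD 1 and fresh 10x, against 15.8% of 11759 genes (7.39% higher and 8.44% lower). Postn was lower, at 2783 and 2582 CPM in fresh 10x and 1147 in BD 1 (log2 difference -1.39, edgeR adjusted p 0.000771). Tnc was lower too (-1.59, edgeR adjusted p 0.0149), but single cells weighed on it. Leaving out of each library the cell with most Tnc gave 167 and 86.6 CPM in fresh 10x, from 37 and 44 cells, and 70.8 in BD 1. Thbs4 was higher (1.45, edgeR adjusted p 0.00602), a call that rests on the few cells with Thbs4 given above. Whether the cluster differences differ from each other was not tested.

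**Figure D5:**
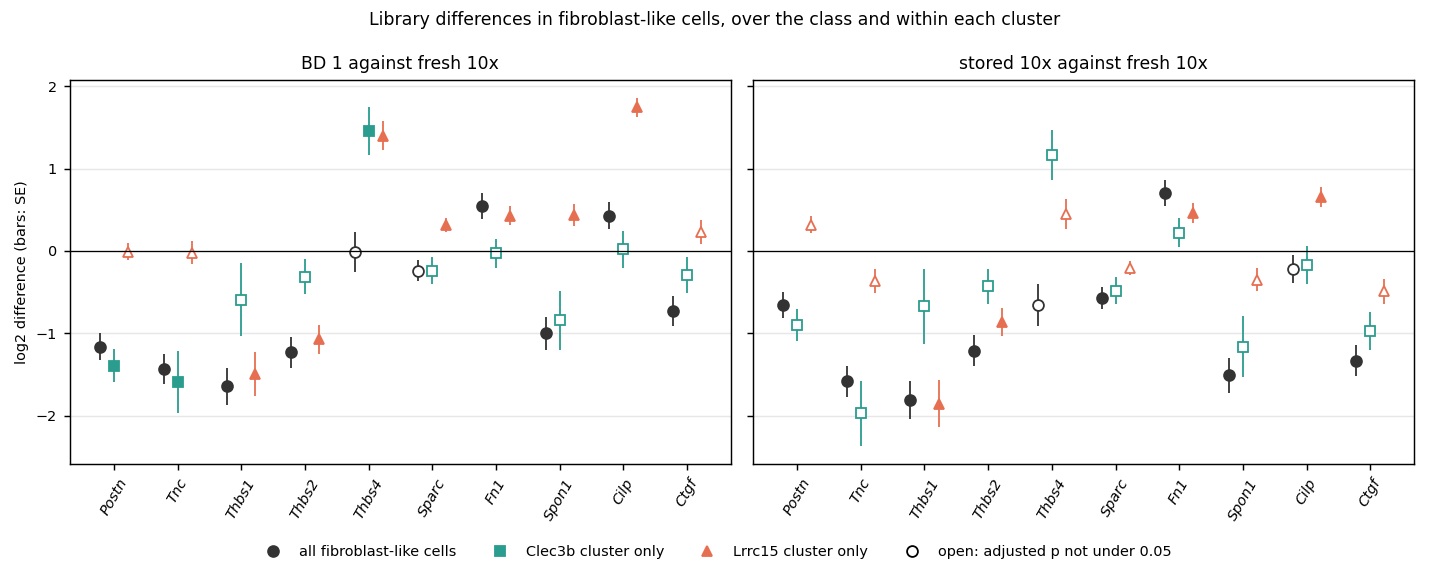
Log2 difference of each member with its SE (edgeR) for BD 1 and for stored 10x against fresh 10x, over all fibroblast-like cells and within each cluster; filled points have an adjusted p under 0.05. Within the Lrrc15 cluster Postn and Tnc lie near 0 for BD 1 while Thbs1 and Thbs2 are lower there too.

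Storage was examined as stored 10x against the same fresh 10x pair. In fibroblast-like cells 8 of the 10 members differed, against 13.0% of the 12222 genes tested. Lower were 7 members (6.13% of all genes were lower), namely Thbs1, Tnc, Spon1, Ctgf, Thbs2, Postn and Sparc, and Fn1 was higher (6.82% of all genes). The median log2 difference was -0.93 over the members and 0.00 over all genes. The comparison shares its fresh samples with the comparison of platforms, so the 2 are not independent.

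Thbs1 was at 124 CPM in stored 10x (log2 difference -1.81, SE 0.228, edgeR adjusted p 2.28e-06) and Tnc at 297 (-1.58, SE 0.189, edgeR adjusted p 1.08e-06). Spon1 was at 261 CPM (-1.51, edgeR adjusted p 8.50e-06) and Ctgf at 265 (-1.33, edgeR adjusted p 1.20e-05). Each of these was below both fresh samples. Thbs2 differed by -1.21 (edgeR adjusted p 5.29e-05), Postn by -0.66 (edgeR adjusted p 0.00494) and Sparc by -0.57 (edgeR adjusted p 0.00377). Fn1 was at 4383 CPM, above both fresh samples (0.70, edgeR adjusted p 0.00298). By the DESeq2 Wald test 5 members passed, against 186 of the 18705 genes with a p-value, and Postn, Sparc and Fn1 did not.

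Within the Lrrc15 cluster 4 members passed for storage, against 6.60% of 10150 genes (3.80% higher and 2.80% lower). Thbs1 (-1.85, edgeR adjusted p 8.46e-05) and Thbs2 (-0.86, edgeR adjusted p 0.00212) were lower, and Cilp (0.65, edgeR adjusted p 0.000904) and Fn1 (0.46, edgeR adjusted p 0.0157) were higher. Thbs1 was at 156 CPM there, against 355 and 776, and without the cell with most Thbs1 at 135 against 306 and 583. Within the Clec3b cluster 0 of the 10 members passed, against 0.706% of 11759 genes (edgeR; 0.578% higher and 0.128% lower). The log2 difference there was -1.97 for Tnc (unadjusted p 0.000372), -0.90 for Postn (unadjusted p 0.000604), -0.97 for Ctgf (unadjusted p 0.00125) and 1.16 for Thbs4 (unadjusted p 0.00258), and Spon1 and Sparc also had an unadjusted p under 0.05.

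Epithelial transcripts in fibroblast-like cells moved with the libraries. The 5 genes Krt8, Krt18, Epcam, Csn3 and Wfdc18 summed to 381, 426, 3060.4, 1304 and 1656 CPM, or 1.54%, 1.67%, 10.3%, 4.41% and 6.12% of their epithelial-like level. All 5 were higher in stored 10x (median log2 difference 2.72) and 4 of 5 in BD 1 (median 1.14). Their part in the member differences was not tested.

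In epithelial-like cells 3 of the 10 members differed for BD 1, against 42.0% of 15363 genes (21.3% higher and 20.7% lower): Fn1 (0.83, SE 0.171, edgeR adjusted p 0.00753) and Thbs1 (0.46, SE 0.111, edgeR adjusted p 0.0145) were higher, and Postn was lower (-1.08, SE 0.345, edgeR adjusted p 0.0400). Thbs1 was at 65.0 and 61.0 CPM in fresh 10x and 96.5 in BD 1. Postn was at 14.7 and 8.02 CPM in fresh 10x and 5.97 in BD 1, so the gap to the nearer fresh sample was smaller than that between the fresh samples. By the DESeq2 Wald test Postn passed alone among the members (adjusted p 0.0366), and Fn1 (0.0903) and Thbs1 (0.0966) did not. Of the 22960 genes with a p-value, 3811 passed that test. With both BD libraries against all 3 10x libraries the Fn1 difference was -0.06. Of the 8 fibroblast background genes, 4 were higher in the same cells of BD 1, Dpt (3.87), Dcn (0.96), Col1a1 (0.86) and Col3a1 (0.84), Lum was lower (-1.01), and their median was 0.58. The Fn1 level there was 0.255% of its fibroblast level and the Postn level 0.273%, where the 8 genes ranged from 0.142% to 0.278%. In fresh 10x 1 and 2 Postn was at 0.309% and 0.188%, where the highest of the 8 genes was at 0.242% and 0.195%. The part of such background in the Fn1 and Postn differences was not tested. The median was 0.30 over the members and 0.02 over all genes. For stored 10x only Fn1 passed among the members, against 1.05% of 15363 genes (0.859% higher and 0.189% lower), at 5.38 and 5.52 CPM in fresh 10x and 16.9 in stored 10x (1.65, SE 0.167, edgeR adjusted p 0.0105). Of the 8 fibroblast background genes, 2 were higher in the same cells, Dpt (2.97) and Col3a1 (1.11), and their median was 1.05. The Fn1 level in epithelial-like cells of stored 10x was 0.386% of its fibroblast level, where the 8 genes ranged from 0.151% to 0.461%.

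Other matricellular genes in fibroblast-like cells moved in both directions. Of 14 listed genes 13 were tested, with medians of -0.00 for BD 1 and -0.03 for stored 10x. In BD 1, 6 of 13 passed, a share near the 43.7% of all genes: 3 were higher, namely Tnxb (tenascin-X, 1.30), Spon2 (0.73) and Sparcl1 (0.72), and 3 were lower, Spp1 (osteopontin, -2.97), Wisp1 (-1.23) and Smoc2 (-0.99). In stored 10x, 9 of 13 passed, against 13.0% of all genes: 4 were higher, Tnxb (1.78), Spon2 (1.76), Thbs3 (1.19) and Tgfbi (0.92), and 5 were lower, Wisp1 (-1.29), Smoc2 (-1.08), Wisp2 (-0.93), Cyr61 (-0.73) and Spp1 (-0.62). Tnxb was among the 10 leading genes of the Clec3b cluster. Spp1 was at 1404, 2245, 1195, 252 and 222 CPM in fibroblast-like cells and at 12524, 8071, 8901, 2937 and 2084 CPM in epithelial-like cells, where it was also lower in BD 1 (-1.97, edgeR adjusted p 0.00241) and did not pass for stored 10x (-0.20, edgeR adjusted p 0.791). Sparcl1 was the other one of the list to pass in epithelial-like cells of BD 1 (0.78), and 0 of 14 passed there for stored 10x.

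Receptors of these proteins were tested as a list of 14 genes, 13 of them in fibroblast-like cells. In BD 1, 6 of 13 passed, against 43.7% of all genes: Itgb3 (1.54), Itga5 (1.17), the syndecan Sdc4 (0.71) and Itgb1 (0.44) were higher, and Itgb5 (-1.67) and the scavenger receptor Lrp1 (-0.47) were lower. Itga5 and Itgb1 encode the fibronectin receptor. In stored 10x, 3 of 13 passed, against 13.0% of all genes: Sdc4 (1.14) and Itgb3 (0.86) were higher and Itgb5 (-1.03) was lower. Itgb5, a vitronectin receptor subunit, was at 564, 477, 257, 177 and 129 CPM. In epithelial-like cells of BD 1, 7 of 14 passed, a share near the 42.0% of all genes called there: Stab1 (2.26), Itga5 (2.00), Itgb3 (1.25), Itgav (0.76) and Itgb1 (0.75) were higher and Cd47 (-0.57) and Itgb5 (-0.41) were lower. For stored 10x 0 of 14 passed in epithelial-like cells.

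The pattern of each member over classes was set beside that of every other gene, as Pearson's r of log2(CPM + 1) over the 32 pairs of a library and a class with at least 20 cells, centred within libraries. The pairs share their library and its depth, so r is a description. Thbs4 was most like Tspan11 (r = 0.973) and Cpz (0.970), and Cilp most like Ogn (0.977) and Tspan11 (0.975). Between members the closest pair was Thbs4 and Cilp, with r = 0.955. Postn was most like Kirrel (0.959) and Pdgfrl (0.951), Tnc most like Col12a1 (0.954) and Pdgfrl (0.935), and Thbs2 most like Aebp1 (0.953). Sparc was most like Prss23 (0.961), Spon1 most like C1qtnf2 (0.970) and Fn1 most like Pkdcc (0.938). Thbs1 had the lowest best match, Cask at 0.914, and Ctgf was most like Snai2 (0.926).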

How the data were processed

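Per the submitters' processing notes, Cell Ranger 3.0.1 and the build mm10 were used (the tool's role for BD Rhapsody and the annotation: not given in the sources used here). The authors deposited UMI counts per gene and cell, whole numbers without normalisation per the file headers; 5 main matrices were used. The members and the gene lists were chosen with earlier results of these data known, and all 10 members are reported. Cells with at least 200 genes (15619) were clustered across libraries without the members (scanpy 1.11.5, 2000 variable genes, 30 principal components, 15 neighbours, Leiden resolution 1.0, igraph 0.11.9; Python 3.11.15). Clusters were named from marker lists with a minimum score of 0.7, a threshold set after seeing the data. Scrublet marked at most 0.394% of a library and was judged not to have worked, so no doublets were removed. Counts summed per library and class were tested with edgeR 4.0.16 (R 4.3.3; quasi-likelihood, TMM, filterByExpr, Benjamini-Hochberg) over 5 libraries in 4 groups, and checked on simulated data. The SE of a log2 difference is its size divided by the square root of the F statistic; DESeq2 1.42.0 was an alternative. For each other list, the genes that passed are named. Shares at 2000 UMIs are expectations for drawing that many UMIs from each deeper cell. Alternatives covered scaling, filters, cell filters, clustering, left-out replicates and the grouping of BD 2.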

Additional observations from a re-analysis of the deposited data

Results flagged for a closer look

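Thbs1, Sparc and Ctgf lay below each fresh 10x sample in fibroblast-like cells of BD 1 and above each in epithelial-like cells. The mean log2 CPM ratio of BD 1 to the fresh samples was -1.50 in fibroblast-like and 0.62 in epithelial-like cells for Thbs1, -0.13 and 0.37 for Sparc, and -0.62 and 0.34 for Ctgf. For stored 10x Ctgf did the same, at -1.33 and 0.08. Within the Lrrc15 cluster the BD 1 difference in fibroblasts turned for Sparc (0.31) and Ctgf (0.23), and the epithelial Sparc level lay within or below that of the fibroblast background genes. The differences between the classes were not tested, and only the Thbs1 change passed its own test in both classes of BD 1.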

How the results depend on the processing

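All 10 members stayed higher in fibroblast-like than in epithelial-like cells under the other cell filters and clusterings and with each library left out (10 to 10 members). For the 2 largest fibroblast clusters the same direction in all libraries held for 10 members, and for 9 at Leiden resolution 2.0, where Fn1 did not keep it between other clusters. The DESeq2 Wald test called fewer genes than edgeR, 1283 against 5339 (fibroblast-like, BD 1), 186 against 1583 (fibroblast-like, stored) and 3811 against 6458 (epithelial-like, BD 1). For stored epithelial-like cells edgeR called 161 genes, 413 with no filter on low counts and 75 with cells of at most 20% mitochondrial UMIs. Within 1 cluster, which tests fewer cells and was added after seeing the data, 1861 genes were called in the Clec3b cluster for BD 1, and 83 (Clec3b) and 670 (Lrrc15) for storage. Directions turned there for BD 1 in Thbs4 (1.45 in the Clec3b and 1.40 in the Lrrc15 cluster), Fn1 (-0.03, Clec3b), Sparc (0.31), Spon1 (0.44) and Ctgf (0.23, all Lrrc15). For storage they turned in Postn (0.32) and Cilp (0.65, both Lrrc15). Thbs4 also turned for storage, from -0.65 over the class to 1.16 in the Clec3b and 0.45 in the Lrrc15 cluster. Epithelial Fn1 turned to -0.06 with both BD libraries against all 3 10x libraries. The causes were not tested. Over all fibroblast-like cells stored Thbs4 passed with no filter (-0.64), against its direction within both clusters. Leaving out a fresh sample leaves no test for BD 1 or storage; the fibroblast Thbs4 difference of BD 1 then ran from -0.42 to 0.60.

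With BD 2 grouped by its title, a replicate block gave 5701 fibroblast and 8347 epithelial calls, against 5754 and 8575 with no replicate block. Same-numbered samples share only a number: their deviations correlated at -0.01 (fibroblast-like) and 0.10 (epithelial-like). Epithelial Spon1 passed in both fits (-1.09 and -1.06). It rests on 28 to 53 UMIs a library, at 1.22 to 1.99 times the median of the fibroblast background genes. The epithelial fits tested 15363 genes with no replicate block and 14234 with it. The mural-like and endothelial-like levels of BD and the Clec3b levels of fresh 10x rest on few cells.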
